A study of Drosophila melanogaster with 3 samples.

Results

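The Mediator and general transcription factor genes are described here as possible binding targets of CG30403, a Drosophila melanogaster protein tagged for chromatin immunoprecipitation. Members were chosen by symbol among protein-coding genes: MED followed by a digit, Taf followed by a digit, or TfII. This rule found 49 of the 13945 protein-coding genes that Ensembl annotates on the 6 chromosome arms. They comprise 25 Mediator genes, 15 TFIID genes and 9 genes of other factors. The rule itself uses no measured value.

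Chromatin came from whole embryos, aged 0 to 24 hours and of mixed sex, of a transgenic line that stably carries CG30403 fused at its C terminus to green fluorescent protein. Sonication gave fragments of 200 to 800 bp, and anti-GFP antibody was used for the precipitation. There are 3 biological replicates and 1 group. The promoter that drives the transgene is not given in the sources used here, all tissues of the embryo were pooled, and no untagged line was analysed here. The data are region lists on build dm6: 1 list per replicate with 29373, 30000 and 30000 regions in replicates 1, 2 and 3, and 1 final list of 7827 reproducible regions, called optimal by the authors. Signal values are the authors' peak strengths without a stated scale, so ranks are given beside them. The lists of replicates 2 and 3 stop at the list length cap of 30000 regions, so weaker regions may be missing from them. Read depth is unknown.

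Mediator is a large complex that bridges transcription factors bound to DNA and RNA polymerase II. Its head and middle modules contact the polymerase, its tail is a landing site for activators, and MED14 runs through the core as a scaffold. TFIID consists of the TATA-binding protein and its associated factors (TAFs), many of which pair through histone folds, and it recognises core promoters. TFIIA and TFIIB join it, TFIIF accompanies the polymerase and TFIIE brings in TFIIH. Most of these genes are active in most cell types, but the members include Taf12L, a testis counterpart of Taf12.

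A gene is called bound here when the summit of an optimal region falls no more than 500 bp from any of its annotated transcription start sites (TSSs). This applied to 23 of the 49 genes (46.9%, 95% exact interval 32.5 to 61.7%). The same rule called 30.2% of all protein-coding genes. Mediator genes were bound in 11 of 25 cases (44.0%), TFIID genes in 8 of 15 (53.3%) and the other factors in 4 of 9 (44.4%). The exact intervals of the 3 classes, 24.4 to 65.1%, 26.6 to 78.7% and 13.7 to 78.8%, overlapped widely, and no class was distinguishable from the others at these numbers. The intervals cover counting of genes only. With 1 group of samples, no difference between conditions could be tested.

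The sequences under 6 of the bound promoters show what DNA lies at the summits. They were chosen by signal from 2L, 3L and 3R, with the strongest of each class on these arms included, and are given as 50 bases on either side of the summit on the plus strand of the Release 6 assembly from RefSeq. Capitals mark matches, on either strand, to 7 short promoter motifs.
MED27 (chr3R:5654945-5655045): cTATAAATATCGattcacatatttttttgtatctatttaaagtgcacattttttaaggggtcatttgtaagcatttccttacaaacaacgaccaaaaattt
MED30 (chr3L:654236-654336): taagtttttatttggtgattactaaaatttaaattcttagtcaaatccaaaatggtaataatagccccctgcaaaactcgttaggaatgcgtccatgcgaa
MED17 (chr3R:18188877-18188977): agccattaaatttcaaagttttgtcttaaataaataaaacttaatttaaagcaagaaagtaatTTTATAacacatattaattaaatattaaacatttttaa
Taf2 (chr3L:9888740-9888840): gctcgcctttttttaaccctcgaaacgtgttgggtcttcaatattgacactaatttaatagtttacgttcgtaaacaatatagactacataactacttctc
MED7 (chr3R:10761058-10761158): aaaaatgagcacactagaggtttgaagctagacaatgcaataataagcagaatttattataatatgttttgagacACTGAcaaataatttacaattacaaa
TfIIB (chr2L:10430951-10431051): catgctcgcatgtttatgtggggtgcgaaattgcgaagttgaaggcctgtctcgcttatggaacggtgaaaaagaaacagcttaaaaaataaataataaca
The MED27 window carries TATAAA on the plus strand, followed directly by CGATA on the reverse strand. The MED17 window, with 14.9% G and C the lowest of the 23 bound members, carries TATAAA on the reverse strand. The MED7 window carries TCAGT, also on the reverse strand, and the windows of MED30, Taf2 and TfIIB hold none of the motifs.

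At 23 windows, the exact intervals of the members' motif shares contained the share among promoter peaks for each of the 7 motifs. CGATA, part of the DNA replication-related element, lay within 50 bp of the summit in 5 members (21.7%) and in 24.9% of the 3601 optimal summits within 500 bp of a TSS. TATAAA, the TATA box, was found in 5 members (21.7%) against 22.2%, and TCAGT, an initiator form, in 2 (8.70%) against 16.2%. GAGAG, the GAGA factor motif, was present in 2 members against 7.75% of promoter summits, and the E-box CAGCTG in 1 (MED25) against 4.94%. The full element TATCGATA, in which CGATA is contained, was in none, against 4.47% of promoter summits, and the motif 1 core GGTCACACT was in none, against 1.47%. With 23 windows, a count of 0 allows a share of up to 14.8% (upper end of the exact interval). The median share of G and C was 28.7% in the members' windows and 33.7% in all promoter windows.

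The strongest Mediator peaks lay at MED27 and MED30, whose products sit between head and tail in human Mediator. The MED27 promoter (FBgn0037359; peak 3R:5654774-5655230, intergenic) had an optimal signal of 1409 and signals of 187, 708 and 523 in replicates 1, 2 and 3. Its ranks there were 302, 133 and 217. MED30 (FBgn0035149; 3L:654018-654476, intergenic) had an optimal signal of 1176, with 192, 468 and 524 in the replicates and ranks of 286, 357 and 214. Both ranked ahead of all other members in every replicate. Both exceeded more than 93% of the 4205 bound genes by signal, with percentiles of 95.5 and 93.3. MED28, placed in the same part of the complex, had no optimal summit in its promoter.

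**Figure D1:**
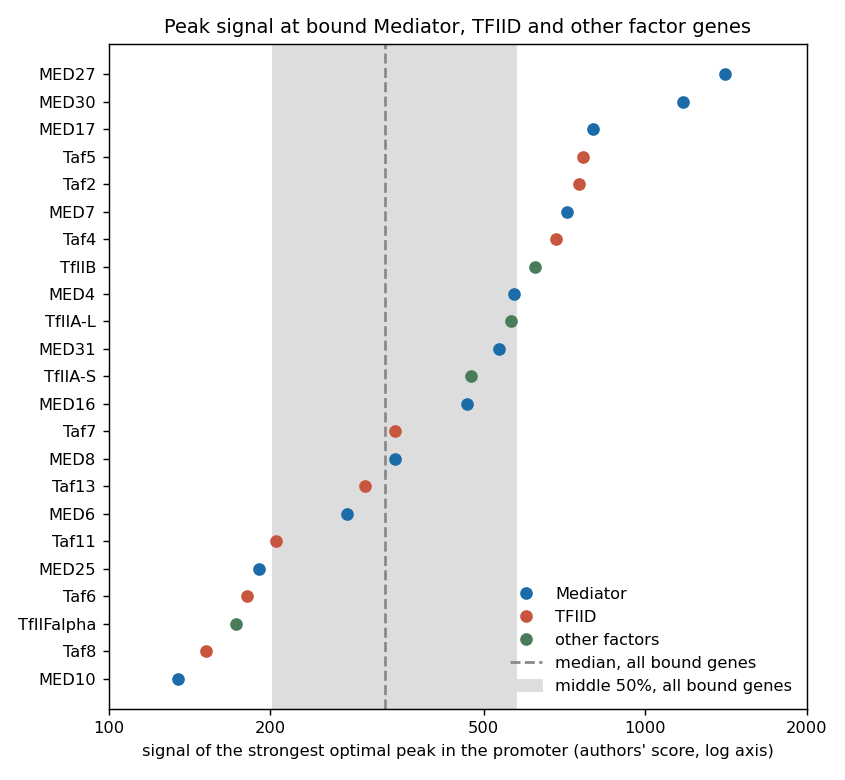
Signal of the strongest optimal peak within 500 bp of a TSS for each of the 23 bound members, on a log axis, coloured by class. The grey band spans the middle 50% (203 to 575) and the dashed line the median (327) of all 4205 bound genes; 15 members lie above that median and MED27 and MED30 stand highest.

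In the head module, MED17, MED8 and MED6 were bound and MED11, MED18, MED20 and MED22 were not. MED17, the central head subunit (FBgn0038578; 3R:18188641-18189169, intergenic), had an optimal signal of 801 and replicate signals of 152, 440 and 222. It ranked 482, 415 and 1141, lowest in replicate 3. MED8 (FBgn0034503; 2R:20326720-20327203, intergenic) had an optimal signal of 342, replicate signals of 52.3, 197 and 97.0 and ranks of 3190, 1768 and 3874. MED6 (FBgn0024330; 3R:9767724-9767873), with a summit in its 5' untranslated region 5 bp upstream of the nearest of its 5 TSSs, had an optimal signal of 279. Its replicate signals were 20.0, 121 and 137, and its ranks of 10790, 3482 and 2483 place it far lower in replicate 1 than in the others.

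Of the middle module, MED7, MED4, MED31 and MED10 were bound. MED7 (FBgn0051390; 3R:10760931-10761307, intergenic) had an optimal signal of 715 and replicate signals of 110, 323 and 276, and its ranks of 899, 738 and 770 were among the steadiest. MED4 (FBgn0035754; 3L:7250548-7250822, intergenic) followed with an optimal signal of 569 and replicate signals of 63.3, 256 and 244. MED31 (FBgn0037262; 3R:4641681-4641993) had an optimal signal of 534 and replicate signals of 95.6, 292 and 150, and its summit lay in an intron of CG9775. MED10 (FBgn0036581; 3L:16231828-16232311, intergenic) was the weakest bound member, with an optimal signal of 135 and replicate signals of 26.0, 53.2 and 47.7. It ranked 7797, 8407 and 8404, beyond the 7827 strongest regions in replicates 2 and 3. The lowest signal in the optimal list was 129, so MED10 lay just inside it. MED1, MED9, MED19, MED21 and MED26 were not bound.

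In the tail, MED16 and MED25 were bound, while MED15, MED23 and MED24 and the scaffold MED14 were not. MED16 (FBgn0034707; 2R:22182956-22183205, intergenic) had an optimal signal of 466, replicate signals of 74.0, 216 and 188 and ranks of 1866, 1545 and 1542. MED25 (FBgn0038760; 3R:20008346-20008829, intergenic) had an optimal signal of 191, replicate signals of 31.0, 80.6 and 77.9 and ranks of 6346, 5519 and 5038. A second, weaker optimal summit (signal 156) lay 24 bp upstream of its TSS.

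TFIID genes had lower peaks than Mediator genes on the median, 321 against 534, but the ranges overlapped, from 152 to 767 and from 135 to 1409. The strongest were at Taf5 and Taf2, genes for subunits without a histone fold, followed by the histone-fold gene Taf4 (683). At Taf5 and Taf2 the summit lay nearer to a TSS of the neighbours Pex6 and CalpB. Taf5, a subunit with WD repeats (FBgn0010356; 2R:10879593-10880043, intergenic), had an optimal signal of 767 and replicate signals of 148, 384 and 239. Taf2, which contacts the initiator (FBgn0011836; 3L:9888622-9888927), had an optimal signal of 753 and replicate signals of 175, 393 and 188. Its ranks of 360, 518 and 1555 were spread more than 4-fold, and its summit lay in the 5' untranslated region of the neighbour CalpB. Taf7, a partner of Taf1 (FBgn0024909; 3R:7907234-7907717), had an optimal signal of 342, replicate signals of 53.9, 155 and 116 and steady ranks of 3045, 2530 and 3110. Taf1, the largest subunit, was not bound, and its best region in any replicate ranked 26617 (replicate 1).

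Of the histone-fold pairs of TFIID considered here, chosen from textbook knowledge after the data were seen, some shared a state and others did not. Taf11 and Taf13, which pair with each other, were both bound. Taf13 (FBgn0032847; 2L:20093777-20094260) had an optimal signal of 300 and replicate signals of 44.2, 145 and 98.5. Taf11 (FBgn0011291; 2L:9763133-9763616) had an optimal signal of 205, replicate signals of 24.5, 118 and 71.3, and ranks of 8411, 3602 and 5544. Both summits lay in 5' untranslated regions of neighbours, nesd and und.

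In 3 other pairs only 1 partner was bound. Taf4 (FBgn0010280; 3L:16113486-16113850, in an intron of Taf4) had an optimal signal of 683, replicate signals of 79.9, 298 and 307 and ranks of 1609, 867 and 638. Its partner Taf12 had a single region in its promoter, ranked 24269 in replicate 2. Taf6 (FBgn0010417; 3L:19598599-19599082, intergenic) had an optimal signal of 182 and replicate signals of 25.2, 73.9 and 77.1, while its partner Taf9 ranked 22167, 11594 and 10194. Taf8 (FBgn0022724; X:18101414-18101897, intergenic) had an optimal signal of 152 and replicate signals of 49.6, 77.9 and 31.1. It ranked 3430, 5726 and 12667, high in replicate 1 and low in replicate 3. Its partners are Taf10 and Taf10b, whose TSSs lie 45 bp apart and which therefore share their regions. These ranked 7733, 11699 and 10264, inside the top 7827 in replicate 1 only, and neither gene was bound. Taf3, another histone-fold partner of Taf10, was not bound either.

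Among the other factors, both main TFIIA genes and TFIIB were bound. TfIIB, which links TFIID to the polymerase (FBgn0004915; 2L:10430869-10431131, intergenic), had an optimal signal of 623 and replicate signals of 99.5, 312 and 209. TfIIA-L, the large TFIIA subunit (FBgn0011289; 3R:27253129-27253506, in an intron of TfIIA-L), had an optimal signal of 563 and replicate signals of 96.0, 247 and 232. Its ranks of 1152, 1225 and 1053 were close together. TfIIA-S, the small subunit (FBgn0013347; 3R:23891013-23891258, intergenic), had an optimal signal of 473, replicate signals of 61.2, 186 and 230 and ranks of 2523, 1944 and 1070. The second small-subunit gene, TfIIA-S-2, had no region in its promoter in any replicate. TfIIFalpha (FBgn0010282; 3R:6380150-6380633, intergenic) had an optimal signal of 173 and replicate signals of 26.4, 81.3 and 63.7, while TfIIFbeta, TfIIEalpha, TfIIEbeta and the elongation factor gene TfIIS were not bound.

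**Figure D2:**
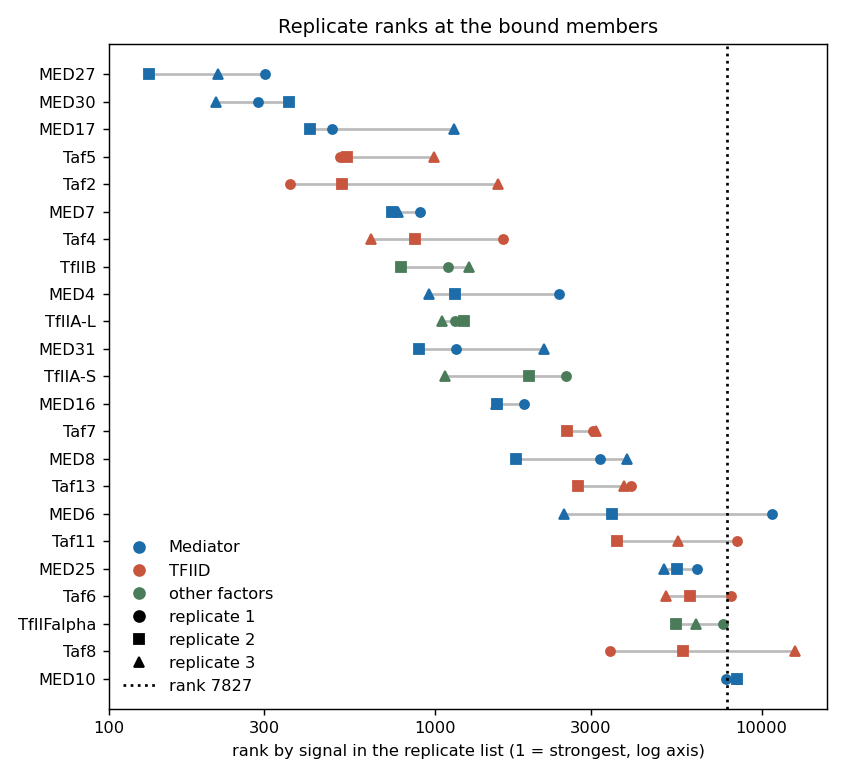
Rank by signal of the strongest region within 500 bp of a TSS in each replicate list, for the 23 bound members in the order of their optimal signal (log axis, 1 is the strongest). Symbols stand for replicates, colours for classes, and the dotted line marks rank 7827; MED6, Taf11, Taf6, Taf8 and MED10 cross it in at least 1 replicate.

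The number of bound members varied between replicates even when lists of equal length were used. Of the 30 members bound in at least 1 replicate, 12 were not bound in all 3. The same count over all protein-coding genes is not given here, so it cannot be read as particular to the members. With the 7827 strongest regions of each list, 22, 27 and 21 of the 49 members were bound in replicates 1, 2 and 3 (23.3 ± 3.21, SD, n = 3), or 44.9%, 55.1% and 42.9%. The same lists called 28.1%, 30.0% and 30.4% of all protein-coding genes. The members lay above the background in each replicate, and replicate 2 gave the most. In the optimal list and all 3 replicates together, 18 members (36.7%) were bound, against 23.7% of all genes. These 18 are 78.3% of the bound members, and the share is 78.6% for all bound genes. All 4 bound members among the other factors belonged to the 18, with 9 of 11 in Mediator and 5 of 8 in TFIID. Reproducibility between these same replicates was the authors' criterion for the optimal regions. Ranks stayed within 2-fold across replicates for 12 of the 23 bound members, and the widest spread was 4.35-fold, at MED6. The rank spread of all bound genes is not given here for comparison. The replicate region overlapped the optimal peak by at least 1 bp in all 69 cases.

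The members' median optimal signal was 473, against 327 over all bound genes, and 15 of 23 exceeded the latter. By class, 8 of 11 Mediator genes (median 534) and 3 of 4 other factors (median 518) lay above 327. Of the TFIID genes 4 of 8 did, and their median of 321 was slightly below it. Among the 1000 strongest optimal peaks, 8 members had a promoter summit (16.3% of 49), against 6.91% of all protein-coding genes. They were MED27, MED30, MED17, Taf5, Taf2, MED7, Taf4 and TfIIB. At MED27, MED30, Taf5, Taf2 and TfIIB the strongest summit lay nearer to a TSS of another gene, and at MED17, MED7 and Taf4 it did not. Signal was not compared with each peak counted for the nearest TSS only, so the higher values cannot be assigned to the members themselves. With the stronger 50% of peaks, 17 members were bound (34.7%), against 19.7% of genes.

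Most of the bound promoters were shared with another gene. For 20 of the 23 bound members (87.0%), the summit also lay within 500 bp of a TSS of another protein-coding gene, against 59.4% of all bound genes. In 19 of these 20 the neighbour nearest to the summit was divergent, that is, transcribed away from the member on the opposite strand. The share among all shared peaks was 92.4%. At MED31, where that neighbour is CG9775, the gene slx1 also has a TSS at the same position as MED31. The exception was Taf7, whose nearest neighbour EMC1 lies on the opposite strand with overlapping 5' ends, the closest TSSs being 30 bp apart. MED4, Taf4 and TfIIA-S were the members whose peak had no other TSS within that distance. The summit of the strongest peak lay upstream of the member's TSS in 22 of 23 cases (90.9% for all bound genes), at a median of 144 bp (146 bp for all), and downstream only at Taf7, by 143 bp.

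The strongest peak stood closer to the neighbour than to the member in 13 of the 20 shared promoters. For TFIID this held in 6 of 7 and for the other factors in 3 of 3, but for Mediator in 4 of 10; over all bound genes with shared peaks the neighbour was nearer in 1218 of 2496. At MED27 the summit was almost midway, 144 bp from the member and 134 bp from elm. At MED30 it was 197 bp away and only 77 bp from Rev1. Taf11 was 113 bp away and und 6 bp, while Taf6 was 247 bp away and its divergent neighbour ash1, a Trithorax group gene, 86 bp. MED7, MED16, MED17 and MED8 lay nearer the summit than their neighbours Cap-H2, CG11170, CG12321 and CG8929. At MED17, for example, the distances were 145 and 220 bp. Which of the genes such a peak belongs to cannot be told apart from these lists.

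**Figure D3:**
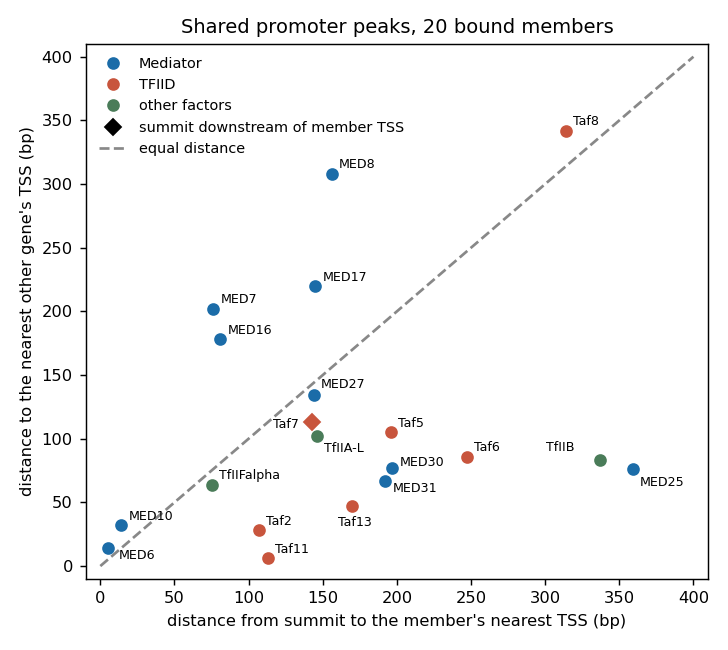
Distance in bp from the summit of the strongest promoter peak to the member's nearest TSS (horizontal) and to the nearest TSS of another protein-coding gene (vertical), for the 20 bound members with a shared peak. Points under the dashed line, 13 of 20, are nearer to the neighbour; the diamond is Taf7, whose summit lies downstream of its TSS.

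Counting each peak for the nearest TSS alone removed most of the difference from other genes. Under that rule 12 of 49 members (24.5%) were bound, against 22.9% of all genes: 8 Mediator genes, 2 TFIID genes (Taf4 and Taf8) and 2 other factors (TfIIB and TfIIA-S). MED27 and MED30 were among the 11 members that lost their call. MED25 and TfIIB, whose strongest summit lay nearer to the neighbour, kept theirs through the weaker second summit. The members also stand in crowded surroundings. A TSS of another protein-coding gene lay within 1000 bp for 36 of 49 (73.5%), against 42.9% of all genes. Among those 36, 21 were bound (58.3%, 95% exact interval 40.8 to 74.5%), against 47.9% of the 5985 genes with such a neighbour. Among the 13 members without one, only MED4 and TfIIA-S were bound (15.4%, exact interval 1.92 to 45.4%), against 16.8% of 7960 genes. The isolated members without a bound promoter were MED11, MED14, MED21, MED24, MED26, Taf1, Taf9, Taf12L, TfIIEalpha, TfIIEbeta and TfIIFbeta.

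**Figure D4:**
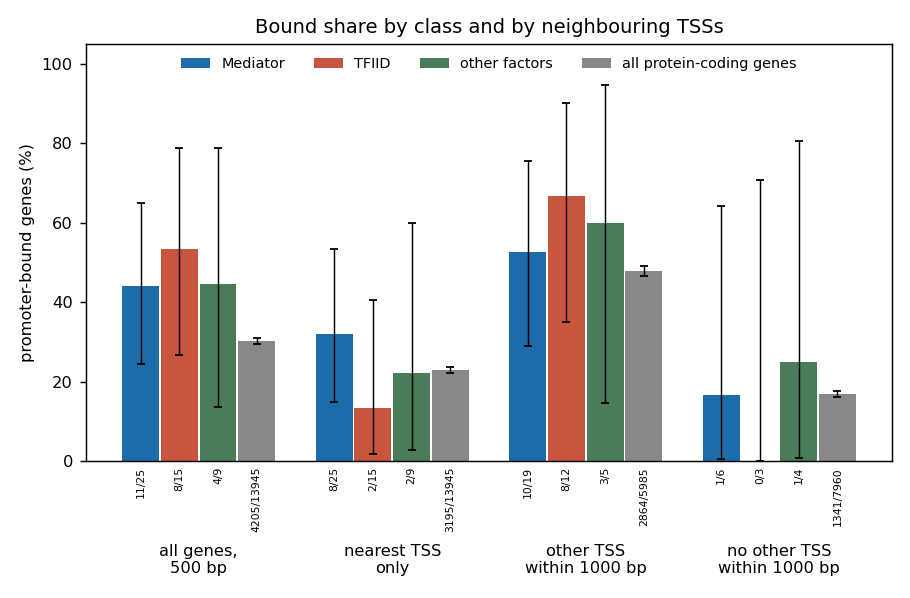
Percentage of genes with a bound promoter in the 3 classes and among all protein-coding genes, for all genes with the 500 bp rule, with each peak counted for the nearest TSS only, and separately for genes with and without another gene's TSS within 1000 bp. Error bars are 95% exact binomial intervals and counts stand under the bars; the class shares exceed that of all genes with the 500 bp rule and near another TSS, and lie on both sides of it, with wide intervals, for the nearest TSS only and without another TSS.

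The 26 members without an optimal summit in their promoter were seldom empty in the replicate lists. These lists reach into weak background regions, so a region there is not a binding site by itself. Of the 26, 12 (46.2%) had a region summit within 500 bp of a TSS in all 3 replicates, against 17.5% of the 9740 unbound genes, and 4 (15.4%) had one in none, against 52.4%. The 4 were MED18, MED20, Taf12L, a testis counterpart of Taf12, and TfIIA-S-2. In 7 of the 26 at least 1 replicate placed such a region among its 7827 strongest, against 7.40% of unbound genes. In 5 of the 7 that replicate was replicate 2: MED1 (rank 6803), MED19 (7015), MED24 (7806), TfIIEalpha (7463) and TfIIEbeta (6730). In Taf10 and Taf10b it was replicate 1. These neighbours share their regions, which therefore count for both genes in the 12 and in the 7. Members have another gene's TSS within 1000 bp more often than all genes do (73.5% against 42.9%). The shares of unbound genes were not compared separately for genes with such a neighbour, so they cannot be read as particular to the members.

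Members present in all 3 replicate lists but not bound were MED1, MED15, MED19, MED23, MED24, MED26, MED28, Taf3, Taf9, Taf10, Taf10b and TfIIEalpha. MED1, a middle subunit that nuclear receptors contact in mammals, ranked 16217, 6803 and 9403 in replicates 1, 2 and 3. TfIIEalpha ranked 17400, 7463 and 8117, and MED23 19583, 9716 and 8736. In each of these replicate 1 placed the region lowest, as it did for MED24, MED28 and Taf9. For MED15 (9879, 17455 and 17501), Taf10 and Taf10b, replicate 1 instead placed it highest. Replicate 3 ranked MED15, MED19, MED26 and Taf3 lowest. Taf3, which reads a histone mark of active promoters in mammals, ranked 11857, 9094 and 15722. MED28 stayed weak throughout, with ranks of 29250, 16325 and 20251, and MED26 reached 9573 in replicate 2 but 18659 and 29600 in replicates 1 and 3.

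**Figure D5:**
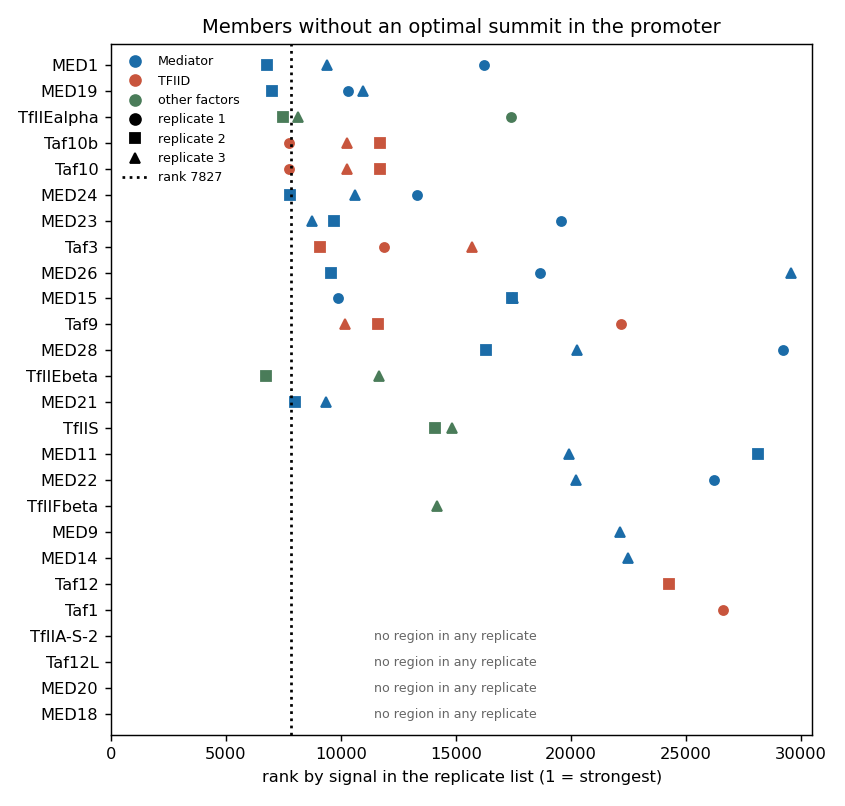
Rank by signal of the strongest region within 500 bp of a TSS in each replicate list for the 26 members without an optimal summit there (1 is the strongest). Symbols stand for replicates and the dotted line marks rank 7827; 7 members have a point left of it and 4 have no region in any replicate.

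The window width decided few calls. MED15 lay just outside, with a strong optimal peak (signal 926) 532 bp upstream of its TSS, while the bound member whose nearest summit was farthest was Taf6, at 247 bp. TfIIS had a peak of signal 309 at 806 bp upstream, and MED20 a peak of signal 231 at 994 bp downstream, inside the gene. These 3 were gained with a window of 1000 bp (26 of 49 members, against 34.0% of all genes), and none of the 23 was lost with 250 bp (24.4% of all genes). The remaining unbound members had their nearest optimal summit between 1421 bp (Taf12) and 577963 bp (MED21) from a TSS, and 11 of 26 were over 5000 bp away, against 61.9% of all unbound genes. Any overlap of an optimal region with the window added MED15 (24 members, against 32.1% of all genes), the 5'-most TSS alone left out MED6 and TfIIA-L (21, against 27.7%), and merging overlapping regions to 1 summit changed no member (23, against 29.9%). Apart from the MED20 peak, no member's gene body held an optimal summit outside the promoter window. Neither of the 2 members on the small chromosome 4, MED26 and Taf3, was bound, where 15 of 80 genes were (18.8%). On 3R, 10 of 14 members were bound (32.3% of all genes there), on 3L 6 of 14 (29.8%), on 2L 3 of 9 (28.6%), on 2R 3 of 5 (28.3%) and on X 1 of 5 (31.9%).

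Related genes that the symbol rule leaves out gave a mixed picture, from a list drawn up with earlier results of these data known. Of 33 such genes, 17 (51.5%) were bound, against 30.2% of all protein-coding genes. The peak was shared with another gene's promoter in 13 of the 17, and in 10 of these 13 it lay nearer to the other gene. TFIIH, which opens the DNA and phosphorylates the polymerase, had 8 of 10 bound, 6 of them through a shared peak that lay nearer to the neighbour. Its strongest was Ssl1 (signal 3853, rank 8 in all 3 replicates), whose peak also lies within 500 bp of a TSS of Chro. The others were mrn (586), Xpd (457), Tfb5 (431), Tfb1 (319), Cdk7 (304), CycH (302) and Tfb4 (246). RNA polymerase II subunits had 7 of 12 bound, led by Polr2B (1194), Polr2H (1145) and Polr2J (871). Of the Mediator kinase module, skd (620) and Cdk8 (271) were bound, and kto and CycC had no region in their promoters in any replicate. The skd peak lay 417 bp upstream of its TSS and only 64 bp from a TSS of Pdss2. A second, weaker summit (signal 136) lay 14 bp upstream of the skd TSS. Neither Tbp, the TATA-binding protein itself, nor the related Trf and Trf2 was bound, although Tbp ranked 13466, 9024 and 8389 in the replicates. None of the 4 testis TAF genes can, sa, mia and nht was bound.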

How the data were processed

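Region lists of tagged CG30403 from 3 biological replicates were used on build dm6. Per the deposited text notes, regions were called by the authors on each replicate and on the pooled alignments against a control, and the optimal list was derived from these by the irreproducible discovery rate (IDR) procedure. Which aligner, peak caller and IDR threshold were used is not given in the sources used here. Signal is a score of peak strength, as deposited by the authors. The −log10 of a q-value, also deposited by the authors, is a single value (4.23) over the optimal list and was not used. Lists on dm3 were not used.

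Summits (region start plus deposited offset) were assigned with Python 3.11.15 and pandas 2.3.3 to all TSSs of protein-coding genes of Ensembl release 115. Of 16213 annotated start codons, 99.9% read ATG in the Release 6 sequence, and no dm6 region ran past an arm end. The strongest summit in the window describes a gene; locations refer to protein-coding gene models. Regions were ranked by signal within each list, and replicate lists were cut to the 7827 strongest. Intervals are exact Clopper-Pearson and cover counting of genes only. No test was run: there is 1 group, and the members and lists were chosen with earlier results of these data known. Named were all 49 members by rule, and the bound ones in full. The module grouping of subunits was added after the data were seen, as textbook background. The assignment was tested on simulated data with planted summits. Of 46 symbols and older names in the related list, 33 matched a gene.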

Additional observations from a re-analysis of the deposited data

How the results depend on the processing

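The count of 23 bound members lay between 17 and 26 when the window was 250 or 1000 bp, when a region only had to overlap it, and with the 5'-most TSS only, the stronger 50% of peaks or 1 summit per merged region. It fell to 12 with each peak counted for the nearest TSS only, to 8 with the 1000 strongest peaks, and to 2 among isolated genes; these alternatives use fewer assignments, peaks or genes by construction. Leaving out 1 replicate gave 21.5 to 24.5 members in the replicate lists and 18 to 21 in the optimal and all remaining lists. For all members, 21 of 24 alternatives moved a count or the median signal by less than 1.5 times. For the 3 classes this held in 62 of 72, and the other 10 include the fall of TFIID from 8 to 5 with the stronger 50% of peaks and to 2 with the nearest TSS only. Peaks were shared at 16 of 23 bound members with 250 bp and at 23 of 26 with 1000 bp. The share over all bound genes is not given for these 2 widths, so the difference from other genes was followed at 500 bp only. No paired analysis was possible because there is 1 group. Depth is unknown, so weak regions cannot be told from missed ones.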
